A study of Rattus norvegicus with 20 samples.

Results

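Cells remove superoxide and peroxides with a small set of enzymes, and 9 of these together with *Park7* are described here in the medial prefrontal cortex (mPFC) of rats after repeated LSD (lysergic acid diethylamide). The 10 genes were chosen by name: the superoxide dismutases *Sod1* and *Sod2*, catalase (*Cat*), the glutathione peroxidases *Gpx1* and *Gpx4*, the peroxiredoxins *Prdx1*, *Prdx2* and *Prdx5*, thioredoxin (*Txn1*) and *Park7*, which encodes DJ-1. They are 10 of the 31038 gene symbols in the count matrix, and all 10 were among the 16605 genes that had enough reads to be tested. Expression was measured by poly(A) RNA-seq in 20 male Sprague-Dawley rats, with 1 library per rat. On alternate days over 90 days, 10 rats received LSD at 0.16 mg/kg and 10 received sterile saline, both by intraperitoneal injection. All were aged 6 to 8 weeks when treatment began, according to the labels, and lived in single cages. The labels place the dissection 3 weeks after the drug was stopped, and the study's methods give a somewhat longer interval and a somewhat higher age, in the same way for both groups. The replicates are therefore separate animals, and the comparison asks whether the antioxidant system still differed after a drug-free period.

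In neurons, mitochondrial respiration and the oxidation of monoamines release superoxide and hydrogen peroxide. Superoxide dismutases turn superoxide into hydrogen peroxide, which catalase, the glutathione peroxidases and the peroxiredoxins then reduce, the last of these drawing their electrons largely from thioredoxin. DJ-1 is a redox-sensitive protein with a reactive cysteine, and its loss causes an inherited early-onset form of parkinsonism.

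Libraries held 16346629 to 25552681 reads on genes in LSD-treated rats and 11098076 to 24201351 in controls, so the LSD libraries were larger (exact permutation test, p = 0.0162, n = 10 rats per group). Saline rat 9 stood apart: it had the highest control value for 7 of the 10 genes and the lowest for 1. Of the markers used to check the tissue, all 10 for neurons were expressed well enough to be tested, and their summed level was 7298 to 8802 RPM (reads scaled to the size of the library) in LSD-treated rats and 7057 to 9401 in controls. The 6 tested markers of striatal projection neurons, which are not cells of the cortex, were present at 201 to 435 RPM in LSD-treated rats and 230 to 609 in controls. All levels are given as RPM after TMM scaling, which corrects for library composition, and they compare 1 gene between rats, not genes with each other, because they are not divided by transcript length. In RNA from whole tissue, fewer cells of a type and less RNA per cell cannot be told apart.

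In LSD-treated rats *Sod1* fell by 17.6%, *Gpx4* fell by 22.2% and *Prdx5* fell by 22.9%, and none of the 10 genes was higher, either with edgeR or with DESeq2 (0 higher at an unadjusted p under 0.05). Differential expression was called at an adjusted p under 0.05 in edgeR's quasi-likelihood test, and under this rule 8.54% of all tested genes were lower and 6.48% were higher. The log2 fold change of LSD against saline was negative for 8 of the 10 genes, whereas 49.6% of all tested genes were negative. Its median was -0.11 over the 10 genes and 0.00 over all genes tested. The genes that fell belong to different arms of the system, and in each family at least 1 other enzyme did not pass the test.

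**Figure D1:**
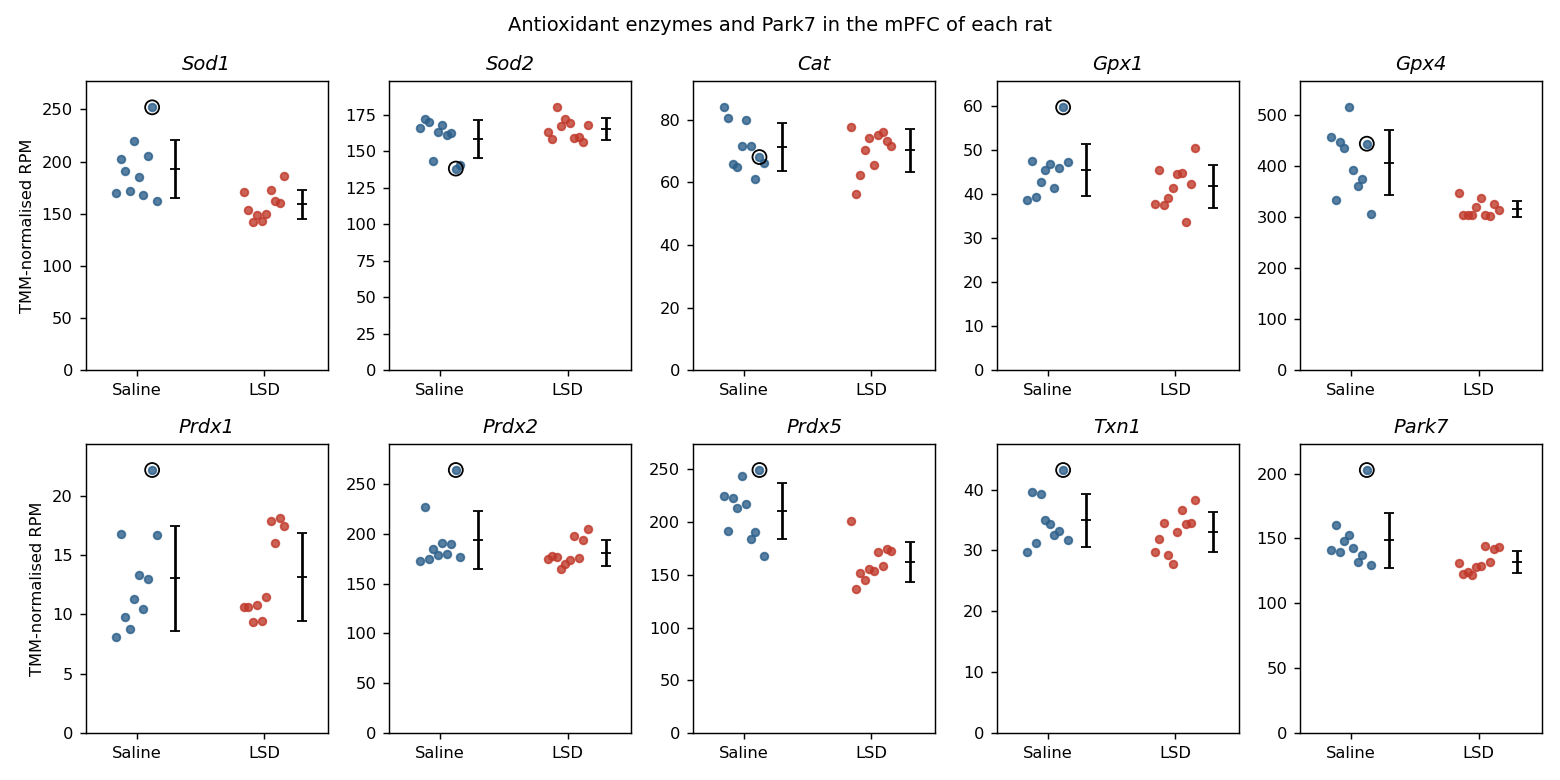
Level of each of the 10 genes in every rat, in TMM-normalised RPM on axes that start at 0. Each point is 1 rat, the bars show the mean and SD of the 10 rats of a group, and saline rat 9 is ringed. *Sod1*, *Gpx4* and *Prdx5* have all 10 LSD-treated rats under the saline median, and the ringed rat is at the top of its group for 7 genes.

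*Sod1* encodes the copper-zinc superoxide dismutase of the cytosol. Its lowest, median and highest levels were 142, 157 and 186 RPM in LSD-treated rats and 163, 188 and 252 RPM in controls. The groups overlapped, but all 10 LSD-treated rats were below the saline median and 7 were below the lowest control, saline rat 10. Mean levels were 159 ± 14.2 RPM (SD, n = 10) and 193 ± 27.9 RPM (SD, n = 10), from 2369 to 5068 reads per rat. This gave a log2 fold change (LSD against saline) of -0.28, with a standard error (SE) of 0.073 and an adjusted p of 0.0158 in edgeR's quasi-likelihood test. The call held whichever single rat was left out, with values between -0.30 and -0.23, and without saline rat 9 it was -0.23 (adjusted p = 0.0252). This was the least secure of the calls, because scaling by total counts alone gave -0.23 and lost it (adjusted p = 0.0511).

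*Sod2*, the manganese dismutase of the mitochondrial matrix, did not follow its cytosolic relative. Its levels ran from 157 to 180 RPM with a median of 165 RPM in LSD-treated rats, and from 138 to 172 RPM with a median of 163 RPM in controls. The LSD-treated rats lay within or just above the control range, and the lowest control was saline rat 9, the rat with the highest *Sod1*. *Sod2* had a fitted log2 fold change of 0.06 (SE 0.048, adjusted p = 0.409), with a 95% interval from -0.03 to 0.15. The balance of both dismutases was also compared within each rat, where the scaling between libraries cancels out. Other differences between libraries need not cancel. *Sod1* had 0.958 reads for each *Sod2* read in LSD-treated rats and 1.21 in controls, as geometric means. On the log2 scale this ratio was -0.06 ± 0.169 (SD, n = 10) against 0.27 ± 0.240 (SD, n = 10). The difference of -0.34 passed an exact two-sided permutation test over all 184756 splits of the rats (p = 0.000401, adjusted p = 0.00120 over the 3 pairs of family members compared), and all 10 LSD-treated rats were below the saline median. Without saline rat 9 the difference was -0.27 (adjusted p = 0.00279, same exact test).

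Among the enzymes that remove peroxides, *Gpx4* fell and *Cat* and *Gpx1* did not pass the test. *Gpx4* is the selenoenzyme that reduces lipid hydroperoxides within membranes and protects cells from ferroptosis, a death driven by iron and lipid peroxidation. Its lowest, median and highest levels were 302, 309 and 346 RPM in LSD-treated rats and 306, 414 and 515 RPM in controls. The LSD-treated rats formed a tight group, and 8 of the 10 controls were above the highest of them. Only saline rats 2 and 10 lay within the LSD range. Mean levels were 316 ± 15.9 RPM (SD, n = 10) and 407 ± 64.2 RPM (SD, n = 10), from 5474 to 8813 reads per rat, and the fitted log2 fold change was -0.36 (SE 0.074, adjusted p = 0.00623). The level of *Gpx4* also moved with library size: within each group it correlated negatively with the log2 number of reads on genes (r = -0.65 in LSD-treated rats and -0.77 in controls, 10 rats each, as a description), and the LSD libraries were larger. With this number as a covariate, chosen after seeing the data, the log2 fold change was -0.21 and missed the threshold (adjusted p = 0.0522). With reads drawn down to the smallest library it was -0.37 (adjusted p = 0.00723). Drawing down evens out the number of reads but keeps the make-up of each library, so it cannot address this correlation.

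*Gpx1*, the abundant soluble glutathione peroxidase, had levels of 33.8 to 50.5 RPM (median 41.9) in LSD-treated rats and 38.7 to 59.7 RPM (median 45.6) in controls. The ranges overlapped widely although 9 of 10 LSD-treated rats were below the saline median, and the top control was again saline rat 9. The fitted log2 fold change was -0.12 (SE 0.075, adjusted p = 0.272, 95% interval -0.27 to 0.02), and without saline rat 9 it was -0.07. The within-rat ratio of *Gpx4* to *Gpx1* was 7.62 in LSD-treated rats and 8.90 in controls, and the difference of -0.23 on the log2 scale did not pass the exact permutation test (p = 0.0636, adjusted p = 0.0954). Without saline rat 10 it was -0.28 and passed (adjusted p = 0.0310, same exact test). *Cat* encodes the peroxisomal catalase, which breaks down hydrogen peroxide without a reducing partner. Its levels were 56.3 to 77.6 RPM (median 72.5) in LSD-treated rats and 61.1 to 84.0 RPM (median 69.8) in controls, and both groups covered the same range. Its fitted log2 fold change of -0.02 (SE 0.065, adjusted p = 0.852) had a 95% interval from -0.15 to 0.11, and its sign turned under several alternatives.

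Of the peroxiredoxins, *Prdx5* fell and *Prdx1* and *Prdx2* did not pass the test. *Prdx5* encodes an atypical peroxiredoxin found in mitochondria, peroxisomes and the cytosol. Its lowest, median and highest levels were 137, 157 and 201 RPM in LSD-treated rats and 168, 215 and 249 RPM in controls. All 10 LSD-treated rats were below the saline median and 6 were below the lowest control. The other 4 lay within the control range, with LSD rat 1 at the top of its group. Mean levels were 162 ± 18.5 RPM (SD, n = 10) and 210 ± 26.4 RPM (SD, n = 10), from 2629 to 4953 reads per rat. *Prdx5* had a fitted change of -0.38 on the log2 scale (SE 0.074, adjusted p = 0.00565), the lowest adjusted p of the 10 genes, and its call held in all 14 alternative fits and with each of the 20 rats left out. In the RefSeq annotation of the GRCr8 assembly, *Prdx5* overlaps *Trmt112*, which encodes an activator of methyltransferases. *Trmt112* was lower as well (49.5 ± 2.46 against 64.8 ± 9.83 RPM, SD, n = 10 each, log2 fold change -0.39, SE 0.073, adjusted p = 0.00441). The strand setting of the counting is not given in the sources used here, so reads from the stretch that both genes cover cannot be told apart.

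*Prdx2*, a cytosolic peroxiredoxin abundant in neurons and red blood cells, had levels of 164 to 205 RPM (median 176) in LSD-treated rats and 172 to 264 RPM (median 182) in controls. The medians lay close together, and the control range was stretched by saline rats 2 and 9. *Prdx2* had a fitted change of -0.10 on the log2 scale (SE 0.070, adjusted p = 0.345, 95% interval -0.24 to 0.04), and -0.04 without saline rat 9. *Prdx1*, the other cytosolic form, had the fewest reads, from 114 to 477 per rat. Its levels were 9.35 to 18.1 RPM (median 11.1) in LSD-treated rats and 8.05 to 22.2 RPM (median 12.1) in controls. *Prdx1* had a fitted change of 0.01 on the log2 scale with an SE of 0.18 (adjusted p = 0.975), so that the 95% interval from -0.33 to 0.35 is wider than for any other of the 10 genes, and without saline rat 9 it was 0.13. RefSeq lists 7 pseudogenes and the gene *Prdx1l1* as near copies of *Prdx1*, so its count may hold or lack shared reads. The within-rat ratio of *Prdx2* to *Prdx1* was 14.2 in LSD-treated rats and 15.5 in controls (exact permutation test, p = 0.390, adjusted p = 0.390). *Txn1*, the cytosolic thioredoxin that recharges these peroxiredoxins, had levels of 27.8 to 38.3 RPM (median 33.7) and 29.7 to 43.2 RPM (median 33.8) in LSD-treated rats and controls. Its medians were nearly equal, and the highest control was saline rat 9. The fitted log2 fold change was -0.08 (SE 0.071, adjusted p = 0.453, 95% interval -0.22 to 0.06), and -0.04 without this rat.

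*Park7* lay between the genes that fell and those without a call. Its lowest, median and highest levels were 121, 130 and 144 RPM in LSD-treated rats and 129, 142 and 203 RPM in controls, from 1645 to 4026 reads per rat. In LSD-treated rats, 8 of 10 were below the saline median and 5 were below the lowest control, saline rat 10. Mean levels were 132 ± 8.60 RPM (SD, n = 10) and 148 ± 21.2 RPM (SD, n = 10). Its fitted log2 fold change was -0.17 (SE 0.066), with p = 0.0151 before and 0.0767 after adjustment, and a 95% interval from -0.30 to -0.04 for this gene alone. Its position depended on the test and on single rats: DESeq2 gave -0.18 (adjusted p = 0.0455), leaving out saline rat 10 gave -0.19 (adjusted p = 0.0438), and leaving out saline rat 9 gave -0.11 (adjusted p = 0.113). RefSeq lists 3 *Park7* pseudogenes, 4 for *Gpx4* and 1 for *Sod2*.

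**Figure D2:**
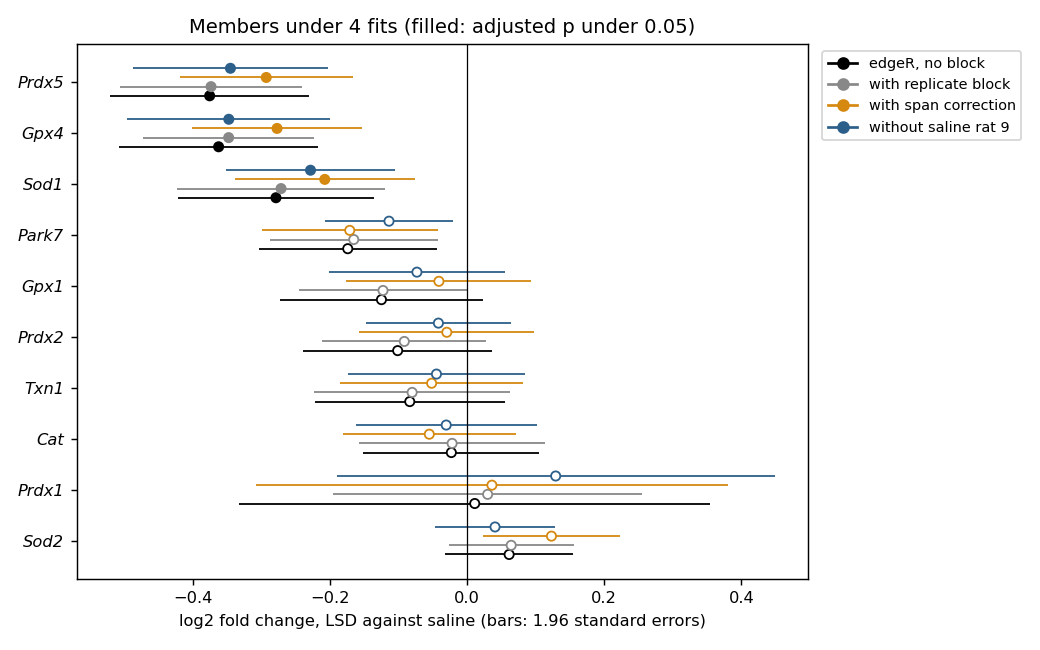
Log2 fold change of LSD against saline for each of the 10 genes, as points with bars of 1.96 standard errors, under 4 fits of edgeR's quasi-likelihood test. Filled points passed an adjusted p under 0.05. *Prdx5*, *Gpx4* and *Sod1* are filled under all 4 fits and no other gene is filled.

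Across tests, the number of the 10 genes called lower was 3 with the replicate number as a block, when 9.67% of all tested genes were lower, and 4 with DESeq2, when 10.5% were. All 10 genes varied less among LSD-treated rats than among controls, by the SD of their log2 levels, and so did 76.7% of all tested genes. Without saline rat 9 the number was 7 of 10, beside 70.4% of all genes.

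The genes that fell are short, and gene length bears on these data. Span, the distance from a gene's start to its end, was taken from GRCr8 to stand in for the rn6 genes that the authors counted. It was known for 14924 tested genes, and within each rat the log2 level relative to all rats was set against the log of the span. This slope was 0.0159 to 0.0831 log2 units per log10 unit of span in LSD-treated rats and -0.225 to 0.0286 in controls, with saline rat 9 at the lower end (exact permutation test of the means, p = 3.25e-05, n = 10 rats per group). Among the 3756 tested genes of a span under 10 kb the median log2 fold change was -0.11 and 18.2% were lower in LSD-treated rats. The 6 of the 10 genes with such a span, *Gpx1*, *Gpx4*, *Prdx5*, *Prdx2*, *Sod1* and *Sod2*, had a median of -0.20, and 3 of them were lower. The remaining 4, *Txn1*, *Prdx1*, *Park7* and *Cat*, had a median of -0.05, beside 0.03 for the 11168 longer genes.

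With each rat's counts corrected for span, 6.84% of all tested genes were lower, and the same 3 genes passed with smaller changes. The corrected log2 fold changes were -0.29 for *Prdx5* (adjusted p = 0.0105), -0.28 for *Gpx4* (adjusted p = 0.0122) and -0.21 for *Sod1* (adjusted p = 0.0499). *Sod1* was thus at the threshold, and with the replicate block in addition it was past it on the other side (adjusted p = 0.0701). *Park7*, with a longer span, hardly moved (-0.17, adjusted p = 0.0914). Within the groups, *Park7* followed the span slope most closely of the genes named here, with r = -0.72 in LSD-treated rats and -0.92 in controls, and *Prdx5* had r = -0.65 and -0.80, whereas *Sod2* had 0.31 and 0.45 (10 rats each, given as a description). *Sod1* had r = -0.56 and -0.72, opposite in sign to *Sod2*. The within-rat ratio of *Sod1* to *Sod2* was not adjusted for this slope.

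**Figure D3:**
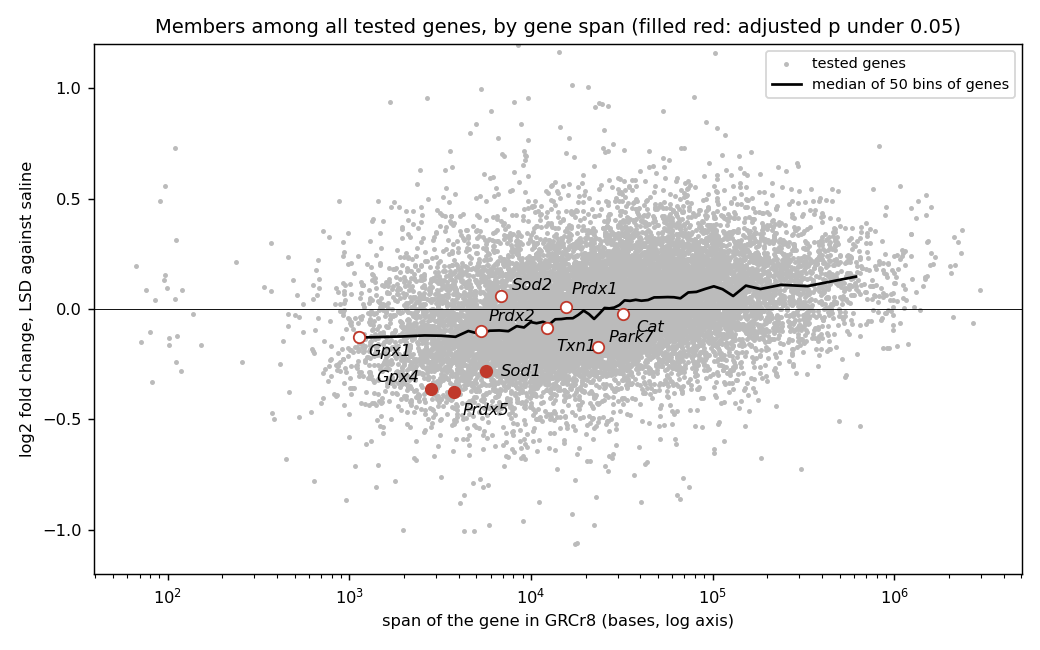
Log2 fold change of LSD against saline (vertical axis) against the GRCr8 span of a gene in bases (horizontal log axis) for all tested genes with a known span in grey, apart from a few outside the vertical range. The 10 genes are circled in red, filled where the adjusted p was under 0.05, and the line joins medians of 50 bins of genes. *Gpx4*, *Prdx5*, *Sod1* and *Park7*, the last without a call, lie below the line, *Gpx1*, *Prdx2* and *Txn1* on or near it, and *Sod2* above it.

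Markers of other cells were summed in each rat to see what else differed between the groups. All 8 oligodendrocyte markers had a negative log2 fold change (median -0.36), 1 of them passed the test, and their sum was 2384 to 6052 RPM in LSD-treated rats and 2418 to 7833 RPM in controls. The 6 striatal markers were all negative too (median -0.71), and none passed with edgeR without a replicate block or with DESeq2, although all 6 were lower at an unadjusted p under 0.05 and 5 passed with the block. Red blood cells, which are rich in *Prdx2*, *Cat*, *Gpx1* and *Sod1* products, had 9 tested markers, of which 8 were negative (median -0.28) and 1 passed. Their sum was 253 to 633 RPM in LSD-treated rats and 345 to 952 RPM in controls, or 440 ± 103 against 598 ± 176 (SD, n = 10, exact permutation test, p = 0.0220). None of the 8 markers of microglia, of the 7 of endothelium and of the 4 of choroid plexus passed with edgeR without a replicate block, with medians of 0.01, -0.15 and -0.24. With the block 1 endothelial marker, *Cldn5*, was lower (adjusted p = 0.0291). At an unadjusted p under 0.05, 2 endothelial markers were lower and none of the other two lists, and DESeq2 called 1 endothelial marker. Of the 4 markers of oligodendrocyte precursors 1 was lower. Of the 10 neuronal markers 2 were lower and 1 higher, and of the 8 of astrocytes 1 was lower and 1 higher, with medians of -0.01 and 0.00. With the block 4 neuronal markers were lower and 1 higher, and 2 astrocyte markers were lower and 1 higher. At an unadjusted p under 0.05, 4 neuronal markers were lower and 1 higher, and 2 astrocyte markers were lower and 2 higher. By the same measure 4 oligodendrocyte, 1 precursor and 3 red blood cell markers were lower and 0 higher, and DESeq2 called 2, 1 and 2 lower. The share of all tested genes at an unadjusted p under 0.05 is not given here, so these unadjusted counts lack a baseline.

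These sums were then used as covariates, a choice made after seeing the data. *Prdx5* and *Gpx4* remained lower with each of the marker sums, at -0.37 and -0.39 with oligodendrocyte markers, -0.36 and -0.38 with striatal markers, and -0.38 and -0.33 with red blood cell markers. *Sod1* passed with oligodendrocyte markers (-0.25, adjusted p = 0.0255) but not with striatal markers (-0.21, adjusted p = 0.0720) or red blood cell markers (-0.26, adjusted p = 0.0639).

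The 10 genes did not vary as a single block from rat to rat. With group means removed, 18 of the 45 pairs had a Pearson's r over 0.5 across the 20 rats and 13 had a negative r, on libraries that share the span slope described above. *Park7*, *Prdx2*, *Sod1* and *Txn1* rose and fell together, with r of 0.89 for *Prdx2* and *Park7*, 0.82 for *Prdx2* and *Txn1*, and 0.82 for *Sod1* and *Park7*. *Gpx4* and *Prdx5*, both lower in LSD-treated rats, had an r of 0.77 with each other, *Prdx5* had 0.63 with both *Sod1* and *Park7*, and *Gpx4* had an r of -0.08 with *Gpx1* of its own family. *Sod2* ran against most of the others, down to -0.45 with *Prdx1*.

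**Figure D4:**
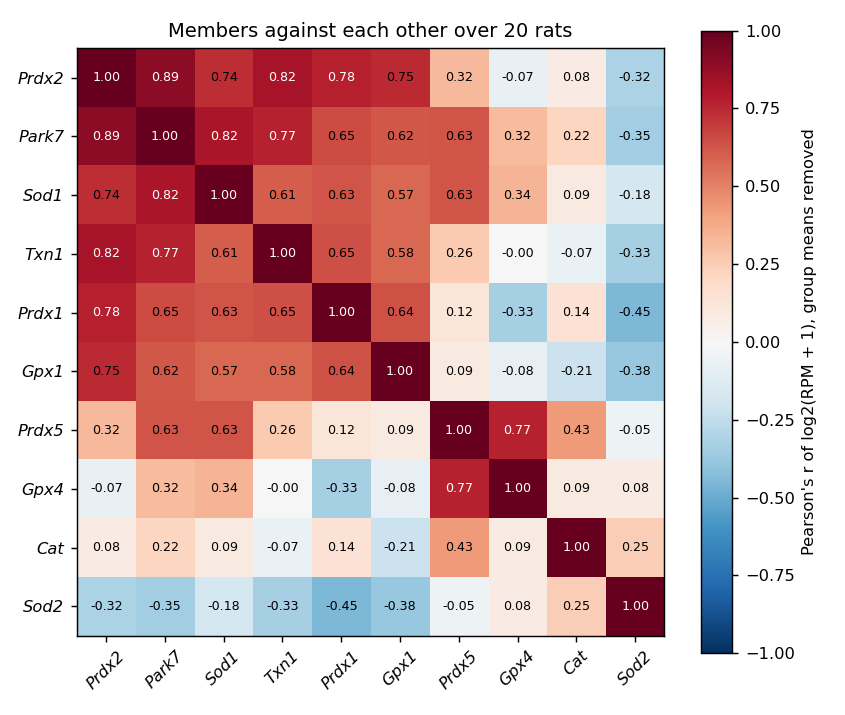
Pearson's r between each pair of the 10 genes across 20 rats, from log2(RPM + 1) with the mean of each group removed, coloured from -1 to 1. *Prdx2*, *Park7*, *Sod1*, *Txn1*, *Prdx1* and *Gpx1* form a block of positive values, *Prdx5* and *Gpx4* pair at 0.77, and *Sod2* is negative with most genes.

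Among 5885 well-expressed genes, those with the most similar pattern to *Gpx4* were *Stk11* (r = 0.94), *Asmtl* and *Tprg1l* (both 0.93), all lower in LSD-treated rats with log2 fold changes of -0.19, -0.24 and -0.31 (adjusted p = 0.0130, 0.0332 and 0.0100). Among those most like *Prdx5* were *Cltb* (0.94) and *Rexo2* (0.92), with log2 fold changes of -0.25 and -0.33 (adjusted p = 0.0119 and 0.00633). *Sod1* was nearest to *Sumo3* (0.90), *Pdcd6* (0.86) and *Gabarapl1* (0.85), none of which passed the test (log2 fold changes of -0.11, -0.04 and -0.11, adjusted p = 0.102, 0.699 and 0.205).

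The wider redox system was examined through 6 lists with 116 further genes, of which 101 were tested. In all, 15 were lower and 3 higher in LSD-treated rats, 58 had a negative log2 fold change and the median was -0.03. Over all tested genes 8.54% were lower and 6.48% higher, and 18.2% of those with a span under 10 kb were lower. With a rat left out in turn, between 8 and 21 were lower. Of the 15 lower genes 6 kept the call after the span correction, and of the 3 higher genes 1 did, while 13 and 3 kept it with the replicate block. The NRF2 pathway, with 26 of the tested genes, held 8 of the lower ones. None of the 12 tested sources of oxidants was called in either direction by edgeR or by DESeq2, and 2 were higher at an unadjusted p under 0.05.

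**Figure D5:**
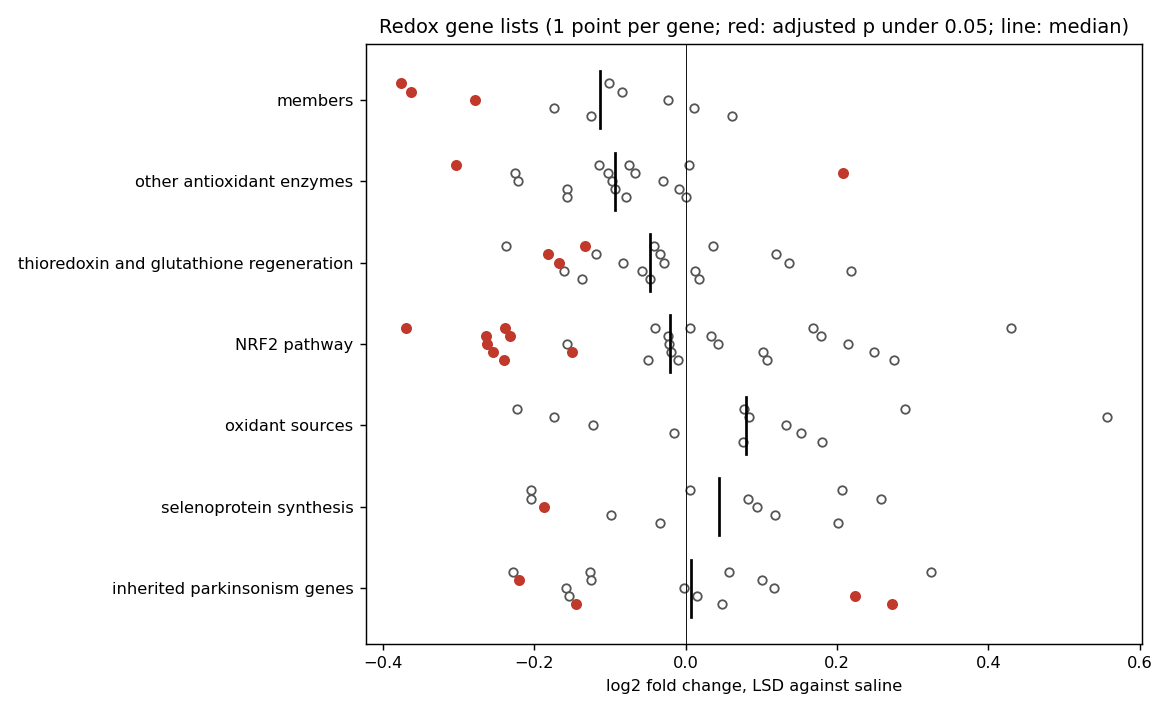
Log2 fold change of LSD against saline for every tested gene of the 10 described here and of the 6 wider lists, with 1 point per gene, red where the adjusted p was under 0.05, and a vertical line at each median. Most red points lie to the left of 0, and the list of oxidant sources has none.

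Of the 17 other antioxidant enzymes tested, 14 were negative (median -0.09), 1 passed as lower and 1 as higher. *Txn2*, the mitochondrial thioredoxin, fell from 109 ± 13.0 RPM in controls to 88.1 ± 5.08 RPM (SD, n = 10 each, log2 fold change -0.30, adjusted p = 0.00619). Whether it differed in this from cytosolic *Txn1* was not tested. *Sesn3*, a sestrin that responds to stress and nutrients, rose from 269 ± 26.3 to 310.4 ± 18.2 RPM (SD, n = 10 each, log2 fold change 0.21, adjusted p = 0.0183).

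Genes that regenerate thioredoxin and glutathione had 3 lower members of 19 and a median of -0.05. Among these were *Glrx5*, a mitochondrial glutaredoxin of iron-sulphur cluster assembly (-0.18, adjusted p = 0.0462, but 0.0656 with the replicate block and 0.101 after span correction), and *Pgd*, an NADPH-producing dehydrogenase (-0.17, adjusted p = 0.0175). The median of the 26 tested genes of the NRF2 pathway was -0.02, so that the list as a whole was centred near 0. *Keap1*, the adaptor that marks NRF2 for degradation, fell by 0.24 on the log2 scale (adjusted p = 0.0274), as did *Sqstm1*, the autophagy receptor that binds it (-0.15, adjusted p = 0.0357). *Fth1*, the ferritin heavy chain that stores iron, was lower (-0.26, adjusted p = 0.0241), and so was *Blvrb*, a biliverdin reductase (-0.25, adjusted p = 0.0408). The other 4 lower genes were glutathione transferases: *Gstp1* (-0.37, adjusted p = 0.0214), *Gstm1* (-0.23, adjusted p = 0.0468), *Gstm7* (-0.24, adjusted p = 0.0407) and *Mgst3* (-0.26, adjusted p = 0.0164). The *Gstm* genes are near copies of each other, and their counts are uncertain to that extent. *Gstm7* lost its call with the replicate block (adjusted p = 0.0531). After the span correction *Mgst3* alone of these 8 genes passed (-0.25, adjusted p = 0.0224).

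The 12 tested oxidant sources had a median of 0.08, with 8 positive. The smallest p-values were those of *Maoa*, the monoamine oxidase that degrades serotonin and releases hydrogen peroxide (0.18, adjusted p = 0.0812), and *Xdh*, the xanthine dehydrogenase (0.29, adjusted p = 0.125). The list for selenoprotein synthesis had 1 lower gene of 12 tested and a median of 0.04. It mixes factors that make selenoproteins, on which *Gpx1* and *Gpx4* depend, with other selenoproteins, so its median does not describe the factors alone. Of its 20 genes 13 were in the matrix. The lower gene was *Eefsec*, the elongation factor that delivers selenocysteine (-0.19, adjusted p = 0.0189). Of the 16 other tested genes of inherited parkinsonism, 2 were lower and 2 higher, with a median of 0.01. *Pink1*, a kinase that flags damaged mitochondria (-0.15, adjusted p = 0.0445), and *Pla2g6*, a phospholipase (-0.22, adjusted p = 0.0230), were lower. *Synj1*, the synaptic phosphatase synaptojanin (0.27, adjusted p = 0.0257), and *Dnajc13*, an endosomal co-chaperone (0.22, adjusted p = 0.0191), were higher. After the span correction *Pla2g6* alone of these 4 genes passed (adjusted p = 0.0164), with adjusted p of 0.105 for *Pink1*, 0.0653 for *Synj1* and 0.0557 for *Dnajc13*.

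NRF2 acts at antioxidant response elements, and the promoters of the 10 genes were searched for the core of this element. The search covered RefSeq promoter sequences of GRCr8, from 250 bases before to 50 after each start, 14 windows for the 10 genes, on both strands. The core TGACNNNGC was found for *Sod2*, *Prdx1* and *Prdx5*, in 3 of the 14 windows, and in 12.1% of all 33469 promoters. Only *Prdx5* of these 3 genes was lower in LSD-treated rats, and neither the *Sod1* nor the *Gpx4* windows held the core. The stretches that hold it are printed 5′ to 3′ on the strand of the gene, with the core in capitals. It lies on the opposite strand in each and is therefore read as GCNNNGTCA, from position -135 to -127 relative to the start in *Prdx1*, from -35 to -27 in *Sod2*, and across the start in *Prdx5*.
*Prdx5*, chr1:213532008-213532053, minus strand: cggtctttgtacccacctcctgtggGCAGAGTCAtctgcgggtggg
*Sod2*, chr1:50050170-50050228, minus strand: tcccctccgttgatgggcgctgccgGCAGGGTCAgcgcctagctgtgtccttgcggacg
*Prdx1*, chr5:135383746-135383804, plus strand: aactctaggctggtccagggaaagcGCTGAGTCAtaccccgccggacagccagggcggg
The forkhead sequence GTAAACA was in none of the 14 windows and in 3.78% of all promoters. The GC box GGGCGG was found for 9 of the 10 genes, all but *Cat*, in 12 of the 14 windows and in 33.1% of all promoters. These promoters are rich in G and C, between 58.3% and 72% of their bases beside a median of 51.7% over all promoters. A match is a run of letters and not a bound site.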

How the data were processed

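The authors trimmed the reads, aligned them to the rat genome rn6 with HISAT2, counted them per gene with HTSeq and deposited raw counts. Versions, gene annotation and strand setting are not given in the sources used here. The matrix ends with 5 unnamed rows, taken to be HTSeq's counters of unassigned reads; they hold 25.5% to 29.0% of all counts and entered no step.

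A gene was tested if 10 or more rats had 5 or more reads on it. The test was made with edgeR 4.0.16 (R 4.3.3), by the quasi-likelihood test after TMM normalisation, for 10 LSD-treated against 10 control rats, with Benjamini-Hochberg adjustment over all tested genes and a threshold of 0.05. Depth was 11098076 to 25552681 reads on genes per rat. Errors are SDs over rats, and 95% intervals are 1.96 standard errors either way. Ratios within a rat used exact permutation tests (scipy 1.17.1). Alternatives were DESeq2 1.42.0, other scalings and filters, a replicate block, 1 surrogate variable (sva 3.50.0), a span correction over 50 bins, reads drawn down to the smallest library, and each rat left out. The fit was tested on simulated data, in which 200 genes were changed before the filter on reads. It recovered 9 of 100 genes changed by 0.25 on the log2 scale and 55 of 97 changed by 0.5. In the real data 1418 genes were called lower and 1076 higher. With fewer changed genes the adjustment demands a smaller p, so these shares need not hold for the real data and may be too low for them. A missing call is therefore no sign that a change of 0.25 or less is absent.

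The 10 genes and all lists were chosen with earlier results of these data known. Text names the 10 genes, wider-list genes past the threshold (or the 2 with the smallest p), and the 3 genes most correlated with each called gene, apart from 2 genes that are not reported here. Protein sequences and a genome were not used here.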

Additional observations from a re-analysis of the deposited data

Results flagged for a closer look

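In 26 sets of 10 rats, a set being 1 gene or ratio in 1 group, the highest or lowest rat was compared with its nearest neighbour, and 3 sets had a rat set apart by Dixon's criterion for 10 samples, which sets the gap against the whole range. Chance alone marks about 1 in 20 such sets. All 3 concern saline rat 9. It had 59.7 normalised RPM of *Gpx1*, with the next control at 47.6, and 203 normalised RPM of *Park7*, with the next control at 160. Its log2 ratio of *Sod1* to *Sod2* was 0.87, with the next control at 0.43. This rat also had the lowest span slope of all, -0.225. Without it, the log2 fold change of *Gpx1* was -0.07 and that of *Park7* was -0.11, and neither passed the threshold with or without it.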

How the results depend on the processing

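The calls of *Gpx4* and *Prdx5* held with each rat left out and in 13 and 14 of 14 other fits, the exception being the read covariate for *Gpx4*. *Sod1* was called in 10 of 14. It was not called with total counts (-0.23), with span correction and replicate block together (-0.20), or with striatal (-0.21) or red blood cell (-0.26) markers as a covariate. The count of the 10 genes called lower was 5 with 1 surrogate variable, when 9.36% of all tested genes were lower. This fit added *Prdx2* (-0.17) and *Park7* (-0.22).

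Of the wider lists, 15 genes were lower, but 4 with total counts, 5 without a filter, 8 with span correction, 6 with striatal markers, 3 with red blood cell markers and 6 with the read covariate. The share of all tested genes called lower fell in the same settings, from 8.54% to 5.17%, 3.32%, 6.84%, 7.24%, 3.26% and 3.85%. The count was 8 to 21 with a rat left out (8 or 9 without LSD rat 3, 4 or 8 or saline rat 1, 3, 4, 5 or 9). The 3 higher genes became 6 with the replicate block, 5 with 1 surrogate variable, 1 with span correction, 9 with oligodendrocyte markers and 1 with red blood cell markers, beside 6.48% of all tested genes in the first place and 8.16%, 8.11%, 3.39%, 9.87% and 2.51% in these settings, and 2 to 7 with a rat left out (6 without LSD rat 1 and 7 without saline rat 2). Total counts moved the median of all genes to 0.05, and 36.3% of all calls were then lower, beside 56.9% with TMM, 46.5% without a filter and 66.9% with span correction.

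Directions near 0 turned. *Cat* was 0.022 with total counts, 0.00071 with oligodendrocyte markers, and -0.046 to 0.0085 with a rat left out (above 0 without LSD rat 2 or saline rat 1). *Prdx1* was -0.21 with 1 surrogate variable, -0.0039 with reads drawn down, -0.0058 with red blood cell markers, -0.35 with the read covariate and -0.050 to 0.13 with a rat left out. None of these values passed the threshold. The cause was not tested.

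The methods do not say that equal replicate numbers pair rats. Same-numbered rats correlated with a mean r of 0.145 (other pairs -0.0157), 6 of 10 pairs were over 0.1, and 1 of 10 LSD-treated rats matched its own number best. With the replicate block *Sod1* was -0.27 (adjusted p = 0.0278), *Gpx4* -0.35 (adjusted p = 0.00602), *Prdx5* -0.37 (adjusted p = 0.00592) and *Park7* -0.17 (adjusted p = 0.0800), and the block called 3 of the 10 genes lower. In an exact sign-flip test on the numbered pairs the ratio of *Gpx4* to *Gpx1*, -0.23, passed (adjusted p = 0.0322), as did that of *Sod1* to *Sod2* (adjusted p = 0.0293). With a rat left out, the former was -0.28 to -0.18 and passed only without saline rat 10. The marker and read covariates were chosen after seeing the data. *Prdx1* had the fewest reads of the 10 genes, 114 to 477 per rat.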

Other observations

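*Prdx1* fell into separate levels among LSD-treated rats, with no value between 11.5 and 16.0 RPM. Controls showed no such clear break, and their widest gap lay between 16.7 and 22.2 RPM. With a cut at 15 normalised RPM, chosen after its values were seen, 7 rats had 16.0 to 22.2 RPM (LSD rats 7, 8, 9 and 10 and saline rats 2, 9 and 10) and 13 rats had 8.05 to 13.3 RPM. Reads on genes were 19368354 to 25552681 in the 7 rats and 11098076 to 20374594 in the 13. Within the groups, *Prdx1* correlated with the log2 number of reads on genes, with r of 0.78 in LSD-treated rats and 0.68 in controls, and with its near copy *Prdx1l1*, with r of 0.92 and 0.83 (10 rats each, as a description). *Prdx1l1* had 28 to 121 reads per rat and a log2 fold change of 0.11 (edgeR's quasi-likelihood test, adjusted p = 0.708).

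Among LSD-treated rats, *Cat* correlated with the summed oligodendrocyte markers (r = 0.83) and *Sod2* with the summed red blood cell markers (r = -0.83). Among controls the same values were -0.11 and 0.09 (10 rats each, as a description). The values in LSD-treated rats were the largest in size among the correlations of the 10 genes with summed oligodendrocyte, striatal and red blood cell markers. They were picked for that, and whether the groups differ in them was not tested.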
